A study of Mus musculus with 30 samples.

Results

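Cholinergic interneuron genes were followed in 30 RNA libraries from the striatum and the subventricular zone (SVZ) of NestinTK mice. The genes were named for their role in these neurons, with earlier results of these data known: Chat, Slc5a7, Slc18a3, Ache and Lhx8. All 5 were found among the 50508 gene symbols of the striatum table and the 53278 of the SVZ table, and all 5 passed the filter on low counts in both tissues, where 15419 and 16375 genes were tested.

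Cholinergic interneurons are a sparse class of large aspiny neurons that supply most of the acetylcholine of the striatum and act on the far more numerous spiny projection neurons. Choline is taken up by a high-affinity transporter (Slc5a7), joined to an acetyl group by choline acetyltransferase (Chat), loaded into synaptic vesicles by the vesicular acetylcholine transporter (Slc18a3), and, after release, split by acetylcholinesterase (Ache). Lhx8 is a LIM homeodomain transcription factor needed for the cholinergic fate of forebrain neurons. Cholinergic neurons of the septum and basal forebrain use the same genes, and Ache is also made by neurons that release other transmitters.

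In the NestinTK line, thymidine kinase is driven by the rat Nestin second-intron enhancer, so that ganciclovir (GCV) kills dividing Nestin-positive cells, among them the neural precursors of the SVZ. Adult mice with the transgene (NestinTK+) or without it (NestinTK-, wild-type littermates) received GCV or phosphate-buffered saline (PBS) for 4 weeks from a minipump under the skin. From 15 mice came a striatum and an SVZ library each. The methods name adult C57Bl/6 and transgenic mice and do not give the strain of the NestinTK line. The ablated group was NestinTK+GCV+ (5 mice, here A1 to A5). The 10 control mice were NestinTK-GCV+ (3 mice, G1 to G3), NestinTK+PBS+ (4 mice, T1 to T4) and NestinTK-PBS+ (3 mice, P1 to P3), numbered within each group in the order of deposition. The same name stands for the same mouse in both tissues. The sex of each mouse was not given in the labels. Mouse numbers in the labels begin with 34 or 40, and this number series was used as a covariate in an alternative fit. All 5 ablated mice were of the 40 series, as were G2, G3, T1, T2 and T4, while G1, T3 and all 3 NestinTK-PBS+ mice were of the 34 series.

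Striatum libraries (QuantSeq, reads from the 3′ end of transcripts) held 2626962 to 4693441 counts, and SVZ libraries (SMART-Seq v4, reads along whole transcripts) held 8360810 to 21056005 counts. Levels are CPM, read counts set to a common library size after TMM scaling, and the tissues were never put into the same fit. The SVZ samples are labelled as neural precursor cells, but the protocol describes dissected tissue, and the summed level of 9 spiny neuron markers in them was 3845 to 12483 CPM against 24.8 to 305 CPM for 6 neuroblast markers. The neuroblast markers, a check of the ablation, summed to 24.8 to 66.3 CPM in the ablated SVZ libraries and to 82 to 305 CPM in the control ones. In such bulk samples, fewer cells of a type and less RNA per cell cannot be told apart.

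Several libraries stood apart by markers of neighbouring regions. Striatum T4 had the lowest spiny neuron sum (4178 CPM, against 8115 to 11257 CPM in the other 14), septal markers at 274 CPM, choroid plexus markers at 1421 CPM and oligodendrocyte markers at 5234 CPM. Cortical excitatory neuron markers summed to 615 CPM in striatum G3, 359 CPM in striatum T2, 528 CPM in SVZ A2 and 615 CPM in SVZ G3. The choroid plexus gene Ttr took 9.83%, 4.49% and 9.88% of the counts in SVZ T1, P1 and P2, and septal markers reached 436 CPM in SVZ T4. The permutation tests were also run without these libraries, an alternative chosen after seeing the data. With fewer mice, the smallest p that such a repeat can reach is larger.

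Chat and Slc18a3 share the cholinergic gene locus on chromosome 14. In GRCm38 (GENCODE annotation), Chat spans bases 32408203 to 32465989 on the minus strand. Slc18a3, a gene of a single exon from 32462438 to 32464850 on the same strand, lies inside it and starts 1139 bases downstream of the Chat start. No exonic base of Slc18a3 is shared with Chat, but unspliced Chat RNA over Slc18a3 could not be told apart from Slc18a3 RNA in these counts. The 250 bases before each RefSeq start are shown because these are the members whose levels moved most closely together in the SVZ (RefSeq, GRCm38.p6, minus strand, chr14:32465910-32466159 for Chat and chr14:32464851-32465100 for Slc18a3). The RefSeq start of Chat lies downstream of the GENCODE one, so that part of the Chat window falls inside the span given above. Capitals mark CAGCTG in Chat and the GC box GGGCGG, here on the other strand as CCGCCC, in Slc18a3.
Chat: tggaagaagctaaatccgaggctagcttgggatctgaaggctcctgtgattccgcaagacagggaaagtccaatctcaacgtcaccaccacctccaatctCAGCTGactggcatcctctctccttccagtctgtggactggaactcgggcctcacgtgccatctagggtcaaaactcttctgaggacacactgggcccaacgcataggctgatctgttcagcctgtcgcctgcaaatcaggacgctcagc
Slc18a3: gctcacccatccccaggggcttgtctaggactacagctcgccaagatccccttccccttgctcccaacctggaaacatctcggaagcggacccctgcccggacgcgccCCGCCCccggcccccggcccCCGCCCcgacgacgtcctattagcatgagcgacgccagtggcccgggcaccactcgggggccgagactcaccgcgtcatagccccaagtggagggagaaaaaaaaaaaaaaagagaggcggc
The E-box with the letters CAGCTG, searched on both strands, occurred in 13% of 32851 such windows of the genome. The GC box was present in 32.7% of them, and the LIM homeodomain core, TAATTA, in 4.84%. The Chat window held 1 E-box and no GC box, and 54.8% of its bases were G or C. The Slc18a3 window held 2 GC boxes and no E-box, and 66% of its bases were G or C. The Ache window (chromosome 5, 137288004 to 137288253) held 4 GC boxes, and the homeodomain core was in the window of no member. The Ache window precedes the RefSeq start but lies inside the GENCODE span of the gene, which begins at 137287519 on the plus strand.

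The first question was whether the genes of acetylcholine synthesis and storage differed in the striatum after ablation. Chat, Slc18a3 and Ache had lower mean levels in the ablated mice and Slc5a7 and Lhx8 higher ones, but each of these differences was smaller than the test could separate from the spread between mice. No member met the call used here, an unadjusted p of at most 0.01 with at least a 2-fold change in edgeR's quasi-likelihood test, which 0.694% of the 15419 genes met. At an unadjusted p under 0.05 the count of members was also 0, against 10.5% of all genes. DESeq2 and limma-voom called 0 members as well, where limma-voom called 19 genes lower and 171 higher. The members' median log2 fold change was -0.28, with 3 of 5 below 0, beside 0.0037 over all genes, of which 49.5% were below 0.

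Chat, the synthesizing enzyme, stood at 9.16, 10.2, 10.7, 17.3 and 11.6 CPM in the striatum of A1 to A5. Levels were 22.8, 12.8 and 15.1 CPM in G1 to G3, 17.3, 13.3, 19.8 and 6.67 CPM in T1 to T4, and 15.7, 18.8 and 11.4 CPM in P1 to P3. Of the ablated libraries, 4 lay at the low end next to P3, A4 lay among the controls, and the lowest of all 15 was the control T4. The fitted log2 difference was -0.37 (SE 0.235, 95% interval -0.86 to 0.11, Benjamini-Hochberg adjusted p = 0.616 by edgeR's quasi-likelihood test), so that the interval did not reach a 2-fold fall. In an exact permutation test of mean log2 CPM over the 3003 splits of the mice, two-sided, the difference was -0.34 (p = 0.196, or 0.029 without T4). Without the 3 striatum libraries that carried cortical, septal or choroid plexus marks it was -0.50 (exact permutation p = 0.0328). The fitted difference shrank to -0.14 with the mouse number series as a covariate and to -0.24 with the level of the spiny neuron markers, and it was -0.56 without A4. These p-values are unadjusted, 10 such tests were made over the members and tissues, and the smallest p this design allows is 6.7e-04.

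Slc18a3, the vesicle loader, rested on the fewest counts of the members in the striatum, 6 to 32 a library. It stood at 2.82, 3.99, 2.22, 1.99 and 4.32 CPM in A1 to A5. The control values were 4.89, 4.25 and 7.56 CPM in G1 to G3, 3.67, 6.27, 6.31 and 2.14 CPM in T1 to T4, and 4.05, 2.84 and 4.6 CPM in P1 to P3. All 5 ablated libraries lay below the control median of 4.43 CPM, but 5 control libraries (G2, T1, T4, P1 and P2) lay within their range. Fitted to the counts, the difference was -0.60 (SE 0.339, 95% interval -1.30 to 0.10, Benjamini-Hochberg adjusted p = 0.567 by edgeR's quasi-likelihood test). By the exact permutation test it was -0.50 (p = 0.0706). That p was 0.023 without T4 and 0.044 without A5 in the exact permutation test, and above 0.05 on leaving out any of the other 13 mice.

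Slc5a7, the choline transporter of cholinergic terminals, stood at 20.4, 14.5, 23.3, 23 and 17.6 CPM in A1 to A5. In the controls it was 22.8, 15.8 and 21 CPM in G1 to G3, 16.5, 10.7, 23.1 and 12 CPM in T1 to T4, and 18.3, 19.2 and 17.9 CPM in P1 to P3. Ablated and control libraries covered nearly the same range, with T2 and T4 lowest. On the log2 scale the difference was 0.15 (SE 0.187, 95% interval -0.23 to 0.54, Benjamini-Hochberg adjusted p = 0.834 by edgeR's quasi-likelihood test), and the exact permutation test gave 0.17 (p = 0.386). The fitted value was 0.37 with the mouse number series as a covariate and 0.051 without the marked libraries.

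Ache, which ends the transmitter's action, stood at 11.3, 16.3, 12.6, 9.36 and 16 CPM in A1 to A5. It was 18.8, 15.5 and 17.2 CPM in G1 to G3, 12.1, 12.9, 13.9 and 18.7 CPM in T1 to T4, and 16, 17.9 and 15.2 CPM in P1 to P3. The lowest libraries were A4 and A1, while A2 and A5 lay above the control median of 15.7 CPM. As a log2 fold change this was -0.28 (SE 0.179, 95% interval -0.65 to 0.092, Benjamini-Hochberg adjusted p = 0.623 by edgeR's quasi-likelihood test), and the exact permutation test gave -0.28 (p = 0.0773). Without A4 the fitted value was -0.17.

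Lhx8, the fate factor, stood at 7.75, 9.8, 7.03, 9.36 and 7.31 CPM in A1 to A5. It was 5.17, 6.51 and 7.56 CPM in G1 to G3, 8.4, 7.01, 8.05 and 5.07 CPM in T1 to T4, and 11.7, 9.16 and 6.53 CPM in P1 to P3. The ablated libraries lay inside the range of the controls. The log2 difference was 0.13 (SE 0.226, 95% interval -0.34 to 0.60, Benjamini-Hochberg adjusted p = 0.895 by edgeR's quasi-likelihood test), and the exact permutation test gave 0.15 (p = 0.382). The fitted value was 0.26 with the mouse number series as a covariate and 0.056 without the marked libraries.

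**Figure D1:**
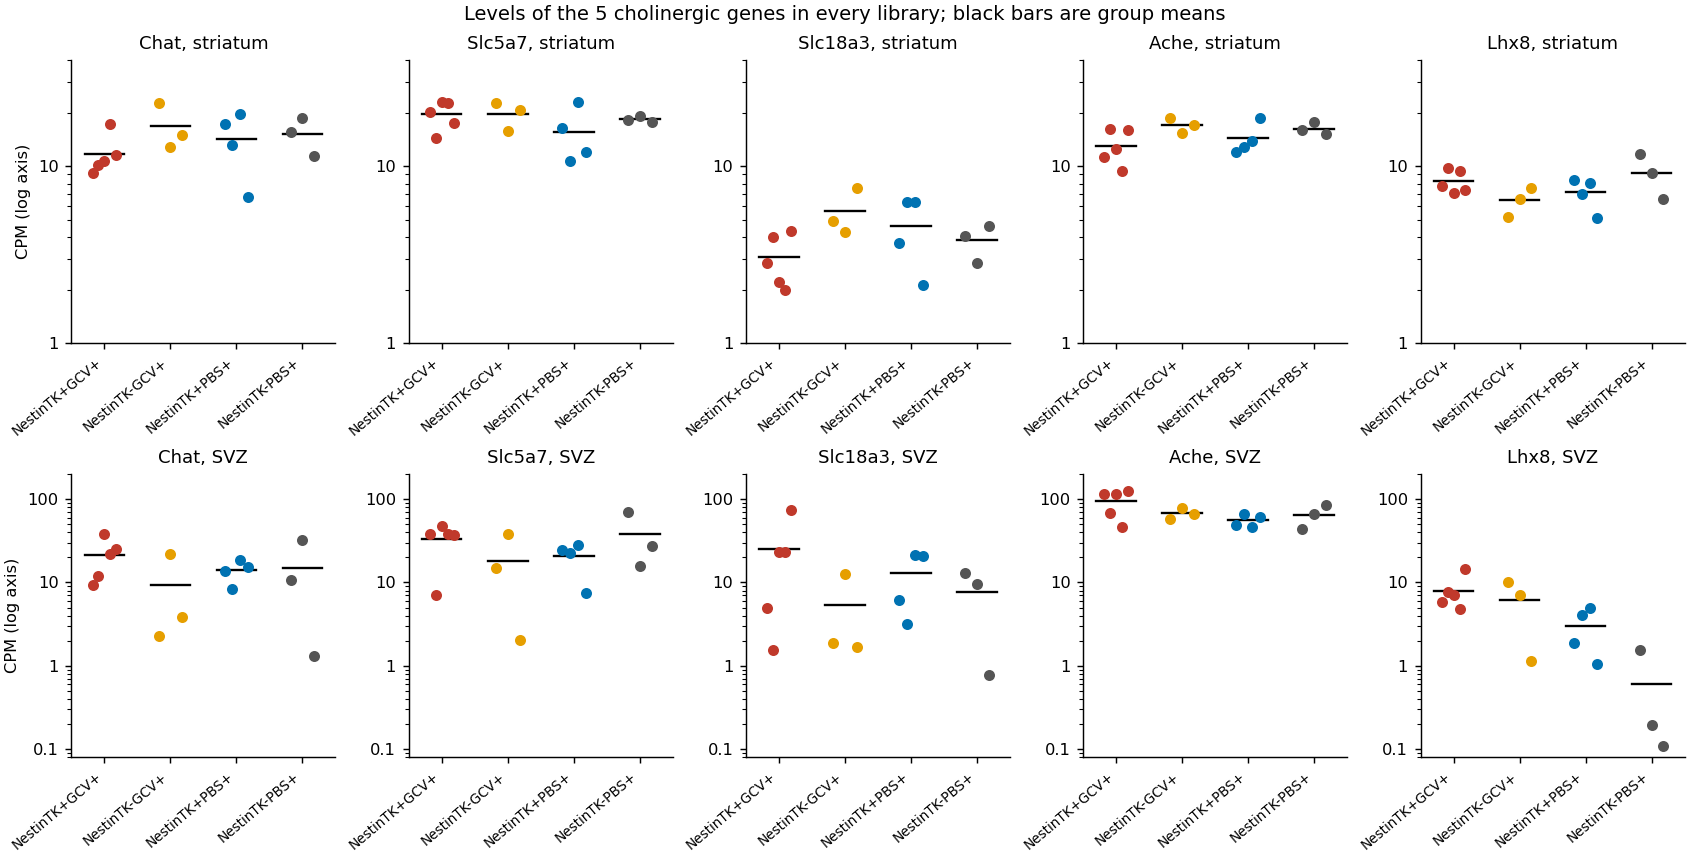
Level of each gene (CPM, log axis) in every library of the 4 groups, striatum above and SVZ below, with the axes of the rows differing. Points are mice and black bars are group means. Striatal points of a gene lie within 2 to 3.8 times of each other, SVZ points of Slc18a3 within 96.7 times and of Lhx8 within 132 times.

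Split into the 4 groups, striatal Chat fell in the order NestinTK-GCV+ (16.9 CPM ± 5.27, SD, n = 3), NestinTK-PBS+ (15.3 ± 3.71, n = 3), NestinTK+PBS+ (14.3 ± 5.73, n = 4) and NestinTK+GCV+ (11.8 ± 3.21, n = 5). Slc18a3 ran from 5.57 ± 1.75 CPM in NestinTK-GCV+ through 4.6 ± 2.05 in NestinTK+PBS+ and 3.83 ± 0.902 in NestinTK-PBS+ to 3.07 ± 1.05 in NestinTK+GCV+. Ache ran from 17.2 ± 1.63 CPM in NestinTK-GCV+ through 16.4 ± 1.36 in NestinTK-PBS+ and 14.4 ± 2.96 in NestinTK+PBS+ to 13.1 ± 3.01 in NestinTK+GCV+. The ablated group was thus last for these 3 genes, yet the ranges of neighbouring groups overlapped at every step. Most genes overlapped in this way. Over all genes, NestinTK+GCV+ lay wholly below NestinTK+PBS+ for 1.51% and wholly above for 1.98%.

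Slc5a7 was ordered differently, with NestinTK-GCV+ (19.9 ± 3.67 CPM) and NestinTK+GCV+ (19.8 ± 3.73) ahead of NestinTK-PBS+ (18.5 ± 0.652) and NestinTK+PBS+ (15.6 ± 5.58). For Lhx8 the order was NestinTK-PBS+ (9.12 ± 2.57 CPM), NestinTK+GCV+ (8.25 ± 1.25), NestinTK+PBS+ (7.13 ± 1.5) and NestinTK-GCV+ (6.41 ± 1.2). Here too every pair of neighbours in the order overlapped.

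The contrasts of the 4 groups asked about treatment and genotype apart, and they share their control mice. edgeR's quasi-likelihood test called 0 of 5 members in each of the 5 contrasts in the striatum, where it called 1.35% of genes for NestinTK+GCV+ against NestinTK+PBS+, 2.1% for NestinTK+GCV+ against NestinTK-GCV+, 2.46% for GCV against PBS in NestinTK- mice, 0.83% for the transgene under PBS and 3.28% for the interaction. At an unadjusted p under 0.05 the count of members was 0 in all 5 contrasts, against 10.1%, 17.7%, 16.1%, 6.41% and 15.1% of genes in the same order. With limma-voom 0 members were called, and its shares over all genes are not given here. The largest member difference was the Slc18a3 interaction of genotype and treatment, at -1.12 (SE 0.626, 95% interval -2.41 to 0.17, Benjamini-Hochberg adjusted p = 0.417 by edgeR's quasi-likelihood test). Between NestinTK+GCV+ and NestinTK-GCV+ mice, which both received the drug, Slc18a3 differed by -0.86 (SE 0.433, adjusted p = 0.304) and Chat by -0.50 (SE 0.305, adjusted p = 0.412) in the same edgeR fit. Without the drug, the transgene went with differences of 0.26 (SE 0.45) for Slc18a3 and -0.093 (SE 0.315) for Chat, with intervals of -0.67 to 1.19 and -0.74 to 0.56.

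In the SVZ all 5 members had higher mean levels in the ablated mice, and the spread between mice was far wider than in the striatum. edgeR's quasi-likelihood test called 0 of 5 members, against 1.59% of the 16375 genes tested. At an unadjusted p under 0.05 it passed 1 member, Ache, against 9.81% of all genes. DESeq2 and limma-voom also called 0 members, and at an unadjusted p under 0.05 they passed Ache and Slc18a3, and Ache and Lhx8. Over all genes, DESeq2 called 409 lower and limma-voom 95, against 199 by edgeR. The shares of all genes that DESeq2 and limma-voom passed at 0.05 are not given here, so their passes cannot be weighed. The members' median log2 fold change was 0.72 beside -0.027 over all genes, of which 48.1% were above 0. Of the 9 spiny neuron markers 8 were also above 0, with a median of 0.26 and a median sum of 10144 CPM in ablated against 8100 CPM in control libraries. The ablated SVZ libraries had a median mitochondrial share of 15.5% (13.1% to 17%) against 11.2% (6.69% to 15.2%) in the controls, and they held 8360810 to 9595103 counts against 8947137 to 21056005. Apart from the fit with the spiny neuron level as a covariate, their part in the members' levels was not tested.

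Ache was the most abundant member per length in the SVZ, at 15.6 CPM per kb of exon, ahead of Slc18a3 (6), Slc5a7 (4.9), Chat (3.3) and Lhx8 (1.86). It stood at 116, 68.9, 114, 46.8 and 125 CPM in A1 to A5. The controls held 57.2, 78.4 and 67.3 CPM (G1 to G3), 49.4, 65.6, 45.8 and 61.6 CPM (T1 to T4), and 44, 65.9 and 84.4 CPM (P1 to P3). A1, A3 and A5 lay above every control library, while A2 and A4 lay within the range of the controls. Fitted to the counts, the difference was 0.60, or 1.52-fold (SE 0.226, 95% interval 0.13 to 1.08, Benjamini-Hochberg adjusted p = 0.388 by edgeR's quasi-likelihood test). The exact permutation test gave 0.54 (p = 0.044), and p stayed under 0.05 in 4 of the 15 repeats that left out a mouse. Without the 6 SVZ libraries that carried cortical, septal or choroid plexus marks the difference was 0.53 (exact permutation p = 0.159). This left A1, A3, A4 and A5 against G1, G2, T2, T3 and P3, so the test could separate less than with all mice.

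Lhx8 stood at 5.76, 7.67, 7.11, 4.81 and 14.5 CPM in A1 to A5 of the SVZ. It was 10.1, 7.16 and 1.14 CPM in G1 to G3, 1.9, 4.09, 4.9 and 1.05 CPM in T1 to T4, and 1.53, 0.193 and 0.11 CPM in P1 to P3, the last 3 being 20, 4 and 1 counts. The ablated libraries were high together with G1 and G2, A4 and T3 were nearly level, and the NestinTK-PBS+ libraries were among the lowest, with G3 and T4. The log2 difference from all controls was 1.31 (SE 0.845, 95% interval -0.46 to 3.07, Benjamini-Hochberg adjusted p = 0.653 by edgeR's quasi-likelihood test), and 2.14 with limma-voom. On mean log2 CPM it was 1.94 (exact permutation p = 0.024), with p under 0.05 in 14 of the 15 repeats that left out a mouse and 0.0699 without A5. That difference became 1.14 (exact permutation p = 0.381) without the 6 marked libraries, which include P1 and P2 of the low group. It was 1.86 (exact permutation p = 0.0671) on leaving out A2 and G3 alone.

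Chat stood at 9.36, 12, 37.9, 21.8 and 25.3 CPM in A1 to A5 of the SVZ. The controls held 2.3, 22 and 3.87 CPM in G1 to G3, 13.6, 8.41, 18.4 and 15.5 CPM in T1 to T4, and 10.8, 32.5 and 1.32 CPM in P1 to P3. The lowest 3 libraries, P3, G1 and G3, were controls, but so was the second highest, P2. On the log2 scale the difference was 0.72 (SE 0.592, 95% interval -0.51 to 1.96, Benjamini-Hochberg adjusted p = 0.758 by edgeR's quasi-likelihood test), and the exact permutation test gave 1.06 (p = 0.15). The fitted value was 0.41 without A3 and 1.17 without the 6 marked libraries.

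Slc18a3 stood at 4.92, 1.53, 23, 23 and 74.6 CPM in A1 to A5 of the SVZ. It was 1.87, 12.6 and 1.67 CPM in G1 to G3, 6.08, 3.2, 21.2 and 20.9 CPM in T1 to T4, and 13.1, 9.49 and 0.771 CPM in P1 to P3. A5 held more than 3 times the next library, and A2 lay near the bottom. As a log2 fold change this was 1.48 (SE 0.761, 95% interval -0.11 to 3.07, Benjamini-Hochberg adjusted p = 0.547 by edgeR's quasi-likelihood test). It fell to 0.54 without A5 and to 0.56 with the level of the spiny neuron markers as a covariate. The exact permutation test gave 1.11 (p = 0.276).

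Slc5a7 stood at 38.4, 7.11, 47.6, 38 and 37.6 CPM in A1 to A5 of the SVZ. It was 14.9, 37.9 and 2.05 CPM in G1 to G3, 24.3, 22.6, 28.5 and 7.55 CPM in T1 to T4, and 70.3, 15.7 and 27.2 CPM in P1 to P3. The lowest libraries were G3, A2 and T4, and the highest was the control P1. The log2 difference was 0.43 (SE 0.542, 95% interval -0.70 to 1.56, Benjamini-Hochberg adjusted p = 0.873 by edgeR's quasi-likelihood test), and the exact permutation test gave 0.63 (p = 0.408). Without the 6 marked libraries the latter was 0.68 (exact permutation p = 0.0317). The fitted value fell to 0.10 with the level of the spiny neuron markers as a covariate and was 0.84 with the mouse number series, 0.76 with limma-voom, and 0.27 (without A3) to 0.75 (without P1) on leaving out a mouse.

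**Figure D2:**
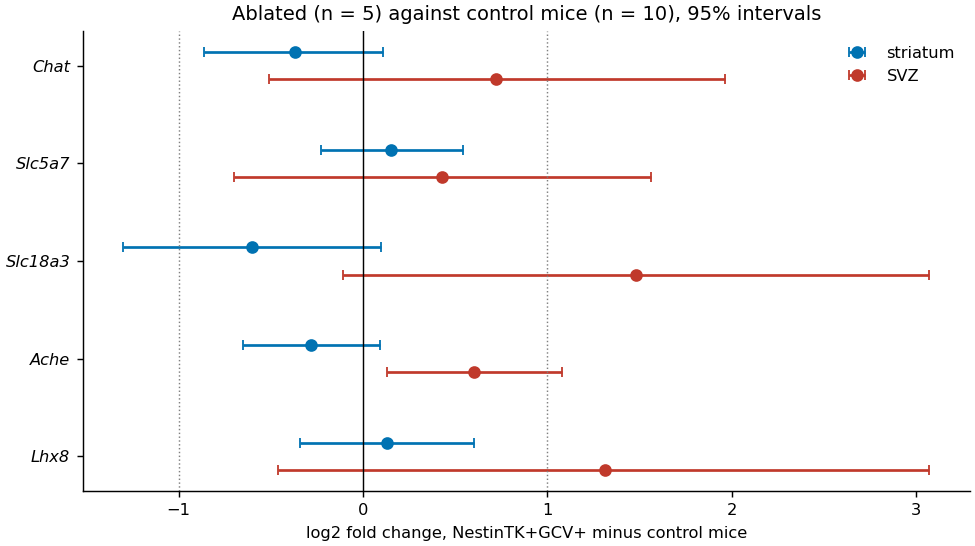
Fitted log2 fold change of each gene, NestinTK+GCV+ (n = 5) minus control mice (n = 10), in striatum (blue) and SVZ (red), with 95% intervals and dotted lines at a 2-fold change. SVZ Ache (0.60) is the single point whose interval, 0.13 to 1.08, does not cross 0, and the SVZ intervals are the wider ones for every gene.

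The SVZ group means of Lhx8 ran from NestinTK+GCV+ (7.97 CPM ± 3.82, SD, n = 5) through NestinTK-GCV+ (6.14 ± 4.58, n = 3) and NestinTK+PBS+ (2.98 ± 1.81, n = 4) to NestinTK-PBS+ (0.611 ± 0.797, n = 3). Both GCV groups were thus above both PBS groups, and neighbours in the order overlapped. Library numbers 1 to 10 belong to GCV mice and higher ones to PBS mice, so that treatment and any order of library making cannot be told apart. All 3 NestinTK-PBS+ mice were also of the 34 number series, so that for these mice the group and the series cannot be told apart. The other mice of that series were G1 (10.1 CPM) and T3 (4.9 CPM). GCV against PBS in NestinTK- mice gave an Lhx8 log2 difference of 3.30 (SE 1.31, 95% interval 0.55 to 6.06, unadjusted p = 0.0214, Benjamini-Hochberg adjusted p = 0.646 by edgeR's quasi-likelihood test), read against a group of 1 to 20 counts. Without P1 it was 5.21, past the call, with an adjusted p of 0.827 in edgeR's quasi-likelihood test.

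Ache ran from 94.1 ± 34.2 CPM in NestinTK+GCV+ through 67.6 ± 10.6 in NestinTK-GCV+ and 64.8 ± 20.2 in NestinTK-PBS+ to 55.6 ± 9.47 in NestinTK+PBS+. Chat ran from 21.3 ± 11.4 CPM in NestinTK+GCV+ through 14.9 ± 16 in NestinTK-PBS+ and 14 ± 4.21 in NestinTK+PBS+ to 9.4 ± 11 in NestinTK-GCV+. For Slc18a3 the order was NestinTK+GCV+ (25.4 ± 29.2 CPM), NestinTK+PBS+ (12.8 ± 9.54), NestinTK-PBS+ (7.78 ± 6.33) and NestinTK-GCV+ (5.36 ± 6.23), and for Slc5a7 NestinTK-PBS+ (37.7 ± 28.8), NestinTK+GCV+ (33.7 ± 15.5), NestinTK+PBS+ (20.7 ± 9.13) and NestinTK-GCV+ (18.3 ± 18.2). All neighbouring groups overlapped, which is no test of these orders. Between the ends of the Ache order, NestinTK+GCV+ and NestinTK+PBS+, the fitted log2 difference was 0.76.

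In the SVZ contrasts, edgeR's quasi-likelihood test called 0 of 5 members each time, against 1.19% of genes for NestinTK+GCV+ against NestinTK+PBS+, 0.94% for NestinTK+GCV+ against NestinTK-GCV+, 1.06% for GCV in NestinTK- mice, 0.195% for the transgene under PBS and 0.837% for the interaction. At an unadjusted p under 0.05 it passed Ache against NestinTK+PBS+ (0.76, SE 0.296) and Lhx8 for GCV in NestinTK- mice, and limma-voom, which called 0, passed the same pair of values. In the order given, 7.13%, 7.45%, 7.65%, 2.69% and 5.09% of all genes did so in the edgeR test. The shares for limma-voom are not given here. Slc18a3 differed by 2.25 (SE 1.19, 95% interval -0.24 to 4.74, adjusted p = 0.693) between NestinTK+GCV+ and NestinTK-GCV+ mice in the Benjamini-Hochberg adjusted edgeR test.

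Since each mouse gave both tissues, the tissues could be compared within a mouse, and that comparison set between ablated and control mice. The difference SVZ minus striatum in log2 CPM was larger in the ablated than in the control mice by 0.82 for Ache (exact permutation test, two-sided, p = 0.00799, 1 of 5 such tests, unadjusted). Leaving out each mouse in turn gave 0.67 to 0.99 and kept p between 0.00599 and 0.024 in the exact permutation test. With the libraries free of cortical, septal or choroid plexus marks in both tissues the difference was 0.91 (exact permutation p = 0.0857). Only A1, A3, A4 and A5 against G1, G2, T3 and P3 were left there, so that p cannot be set beside the one from all mice. The corresponding values were 1.39 for Chat (exact permutation p = 0.0626), 1.78 for Lhx8 (p = 0.0519), 1.62 for Slc18a3 (p = 0.159) and 0.46 for Slc5a7 (p = 0.573). The tissues went through different library kits, and the part of the kits in this difference was not tested.

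**Figure D3:**
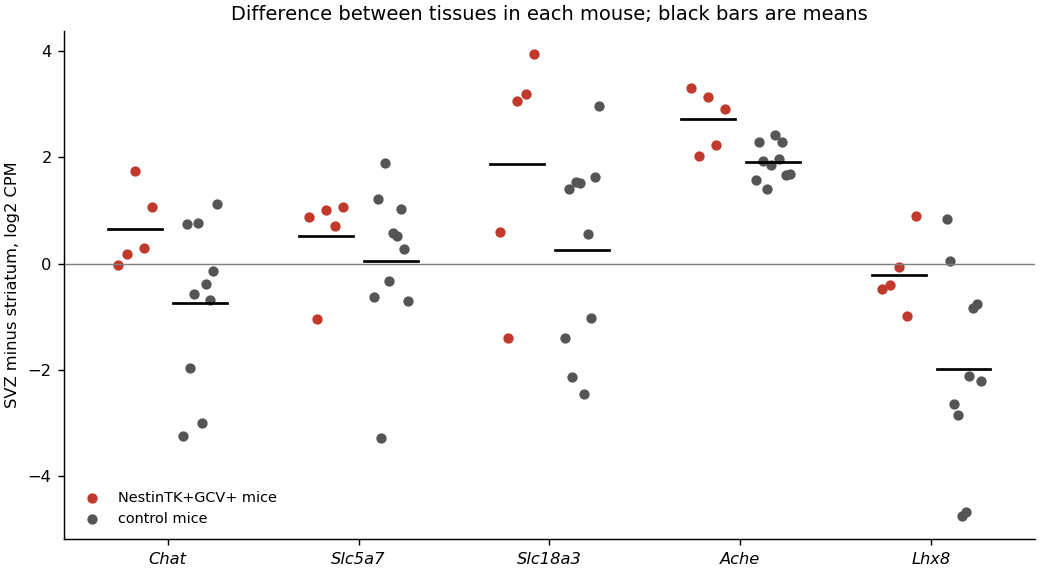
Difference in log2 CPM between the SVZ and the striatum library of each mouse, for NestinTK+GCV+ (red, n = 5) and control mice (grey, n = 10), with means as black bars. For Ache the means differ by 0.82 and 3 ablated mice lie above all 10 controls while the other two lie within their range.

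The members did not vary as a block from mouse to mouse. In the SVZ, Chat and Slc18a3, the neighbours of the shared locus, were closely tied across the 15 libraries, with a Pearson r of log2 CPM of 0.82 and a Spearman rho of 0.80. The r was 0.73 without the 2 libraries farthest from the median and 0.77 after the group means were taken out. By r, Slc18a3 ranked 9 of 16374 genes in likeness to Chat, and Chat ranked 9 in likeness to Slc18a3. In the striatum the same pair had an r of 0.38, or 0.15 without the 2 farthest libraries, and Slc18a3 ranked 2051 of 15418, at far fewer counts. The libraries share their mice and their dissections, so these values are descriptions. Slc5a7 instead followed the mean of the spiny neuron markers in the SVZ (r 0.85, rho 0.84, 0.81 without the 2 farthest, 0.87 with group means taken out), and in the striatum Chat did so (r 0.78, rho 0.72, 0.58 without the 2 farthest). SVZ Slc5a7 also ran against the cortical markers (r -0.78), but with r -0.40 without the 2 farthest libraries, A2 and G3 being the 2 richest in those markers. These values were picked as the largest in absolute r, over every member, marker list and tissue. With the list of cholinergic markers, striatal r was -0.51 for Slc18a3, -0.33 for Ache and -0.20 for Chat, and 0.16 for Slc5a7 and 0.14 for Lhx8. Between the tissues of a mouse, r ran from -0.44 for Slc18a3 (rho -0.41, -0.57 without the 2 farthest) to 0.19 for Slc5a7 (rho 0.35, 0.41 without the 2 farthest) over the 15 mice.

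**Figure D4:**
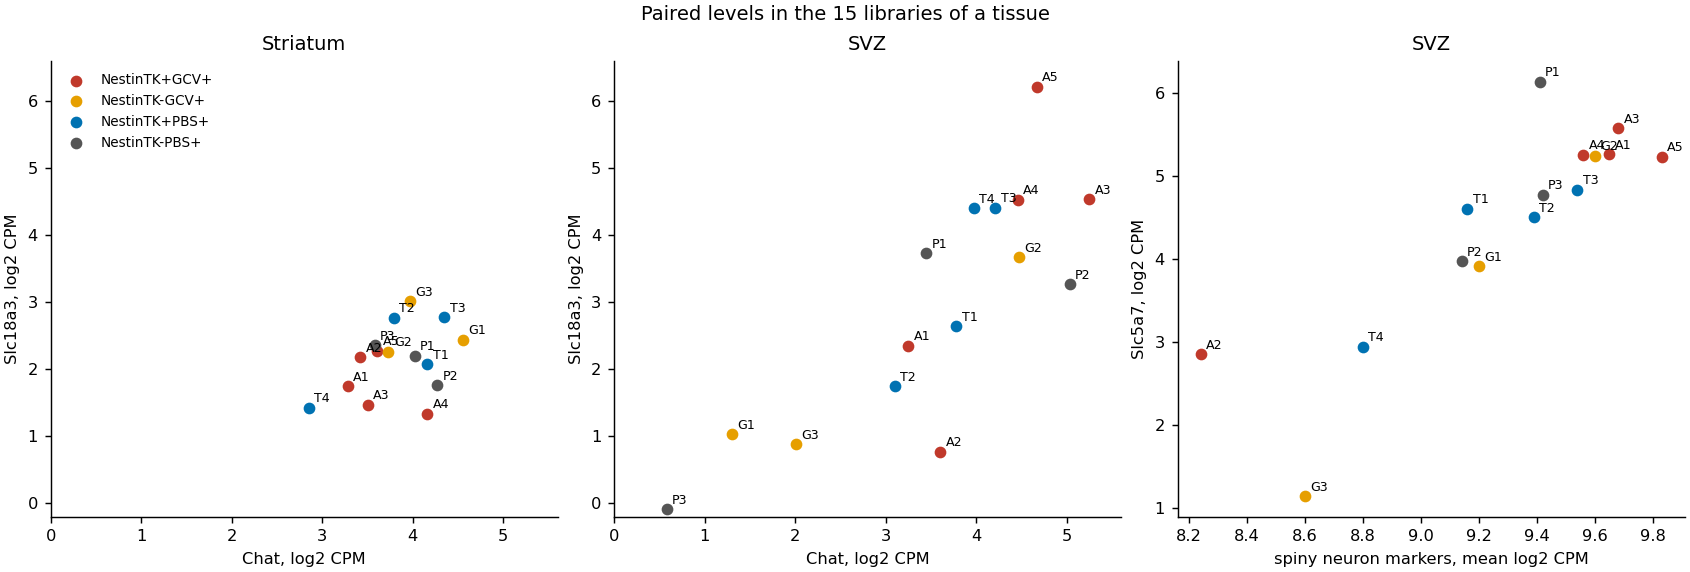
Slc18a3 against Chat in the striatum (left) and the SVZ (middle), and Slc5a7 against the mean of 9 spiny neuron markers in the SVZ (right), all in log2 CPM, with a point for each of 15 libraries coloured by group. The SVZ panels show points along a line (r 0.82 and 0.85), and the striatum panel shows a looser cloud (r 0.38).

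Set beside genes of like level, Slc18a3 in the SVZ had a coefficient of variation of 128% over the 15 libraries, higher than that of 97.3% of 2361 genes within 0.5 log2 units of its mean, whose median was 63.6%. Without A5, left out after seeing the data, it was 84.7%, higher than that of 72.2% of 2006 like-level genes over the same 14 libraries. The coefficients of SVZ Slc5a7 (63.8%) and Chat (68.5%) exceeded those of 85.5% and 65.3% of their like-level genes, or of 66.8% and 54.7% without their highest libraries, P1 and A3. In the striatum, Lhx8 (22.6%) and Ache (18.8%) varied little, with 5.61% and 9.95% of like-level genes below them.

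Other cholinergic genes were read from lists of markers, choline supply, and muscarinic and nicotinic receptors. In NestinTK+GCV+ against control mice, edgeR's quasi-likelihood test called none of the listed genes in either tissue. Of the 9 tested transcription factors and other markers in the striatum, 0 had an unadjusted p under 0.05 and the median log2 fold change was 0.0095. Ecel1, a membrane peptidase of neurons, was at 33.5 to 53.8 CPM in ablated and 36 to 65.6 CPM in control mice (-0.10, SE 0.145). Isl1, a LIM homeodomain partner of Lhx8, was at 9.65 to 24.8 and 9.68 to 20.9 CPM (0.26, SE 0.228). Slc10a4, a transporter-like protein of cholinergic vesicles, was at 12 to 23.8 and 12.2 to 21.5 CPM (0.065, SE 0.188). The 3 most abundant markers thus overlapped between groups, where 0.253% of all genes lay wholly below the controls and 0.279% wholly above.

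Of the choline supply and acetylcholine breakdown genes, 9 of 10 were tested in the striatum, with 1 lower and 1 higher at an unadjusted p under 0.05, beside 5.31% lower and 5.19% higher over all genes. Slc44a1, a choline transporter found in many cell types, was at 48.3 to 80.1 CPM in the ablated and 76.4 to 119 CPM in the control mice, with overlap from A5 and T3 (-0.65, SE 0.143, Benjamini-Hochberg adjusted p = 0.0574 by edgeR's quasi-likelihood test). Oligodendrocytes express Slc44a1, and 4 of 5 oligodendrocyte markers were also lower at an unadjusted p under 0.05, with sums of 1811 to 2418 CPM in ablated and 1924 to 5234 CPM in control mice, and their part in the Slc44a1 value was not tested. Chka, a choline kinase of phospholipid synthesis, was at 48.2 to 63.1 CPM against 20 to 54 CPM (0.56, SE 0.182, adjusted p = 0.238). Its contrasts differed among the controls, with 1.18 (SE 0.192, adjusted p = 0.00262) against NestinTK-GCV+ and 0.34 (SE 0.168, adjusted p = 0.501) against NestinTK+PBS+ mice in the same edgeR fit. The 1.18 met the call, as did 2.1% of genes. Chka was lowest in NestinTK-GCV+ mice (20 to 26.4 CPM), and GCV against PBS in NestinTK- mice gave -0.79 (unadjusted p = 8.5e-04 by edgeR's quasi-likelihood test). The interaction of genotype and treatment, at 1.14, also met the call, as did 3.28% of genes. Acly, which makes cytosolic acetyl-CoA, was at 93.2 to 121 and 92.3 to 142 CPM (-0.085, SE 0.109).

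Among acetylcholine receptors in the striatum, 3 of 5 muscarinic and 6 of 12 nicotinic genes and helpers were tested, with medians of -0.45 and -0.31 beside 0.0037 over all genes, and 2 of each were lower at an unadjusted p under 0.05, as were 5.31% of all genes. Chrm2, the inhibitory autoreceptor of cholinergic neurons, was at 4.72 to 17.3 CPM in ablated and 8.23 to 44.3 CPM in control mice (-0.78, SE 0.355, adjusted p = 0.438), and Chrm3 was at 48.3 to 85.8 and 53 to 160 CPM (-0.45, SE 0.214, adjusted p = 0.467), both in the Benjamini-Hochberg adjusted edgeR test. Chrna4, a subunit of the common neuronal nicotinic receptor, was at 6.66 to 17 CPM in ablated and 7.15 to 118 CPM in control mice (-1.32, SE 0.536, adjusted p = 0.379), and Lynx1, a brake on nicotinic receptors, was at 30.3 to 59.6 and 42.6 to 83.8 CPM (-0.45, SE 0.163, adjusted p = 0.326). The groups overlapped for all 4 genes, as they did for most genes. T4, the library with septal and choroid plexus marks, was the highest control for Chrna4 (118 CPM) and Chrm2 (44.3 CPM), and without it their differences were -0.60 (unadjusted p = 0.0536) and -0.50 (unadjusted p = 0.0841) in edgeR's quasi-likelihood test. The highest library for Chrm3 was G3 (160 CPM), which carried cortical marks, and without it the difference was -0.29 (unadjusted p = 0.104 in edgeR's quasi-likelihood test). The Chrm3 p was under 0.05 in 7 of 15 repeats that left out a mouse, and 0.0805 with limma-voom. Against NestinTK+PBS+ mice alone Chrna4 met the call, as did 1.35% of genes, at -2.04 (SE 0.497, Benjamini-Hochberg adjusted p = 0.0885 by edgeR's quasi-likelihood test). It also met the call for the transgene under PBS, at 1.86, and for the interaction, at -2.65, as did 0.83% and 3.28% of genes. Without T4, a NestinTK+PBS+ mouse, Chrna4 met none of these calls, at -0.74, 0.56 and -1.36. Chrm1, the main muscarinic receptor of spiny neurons, differed by -0.11 (SE 0.224), Chrnb2 by 0.0049 (SE 0.19) and the receptor chaperone Tmem35a by -0.069 (SE 0.141). Chrm4, the other main receptor of spiny neurons, did not pass the filter in the striatum table, where it was at no more than 0.726 CPM. In the SVZ libraries, read along whole transcripts, it was at 2.89 to 21.2 CPM in ablated and 4.09 to 34.2 CPM in control mice. Its annotation holds 1440 exonic bases, and whether striatal reads from the 3′ end fell outside them was not tested. The striatal value is thus no measure of its absence.

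In the SVZ none of the 8 tested markers, 9 choline genes, 4 muscarinic and 7 nicotinic genes had an unadjusted p under 0.05 in edgeR's quasi-likelihood test, where 9.81% of all genes did. The medians were 0.35, -0.10, 0.60 and -0.034. Isl1 differed by 0.13 (SE 0.478) and Slc10a4 by 0.24 (SE 0.569), both smaller than their errors. Slc44a1 differed by -0.28 (SE 0.315, 95% interval -0.93 to 0.38), Chrna4 by 0.10 (SE 0.527) and Lynx1 by -0.08 (SE 0.18), and whether these differ from the striatal values was not tested.

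**Figure D5:**
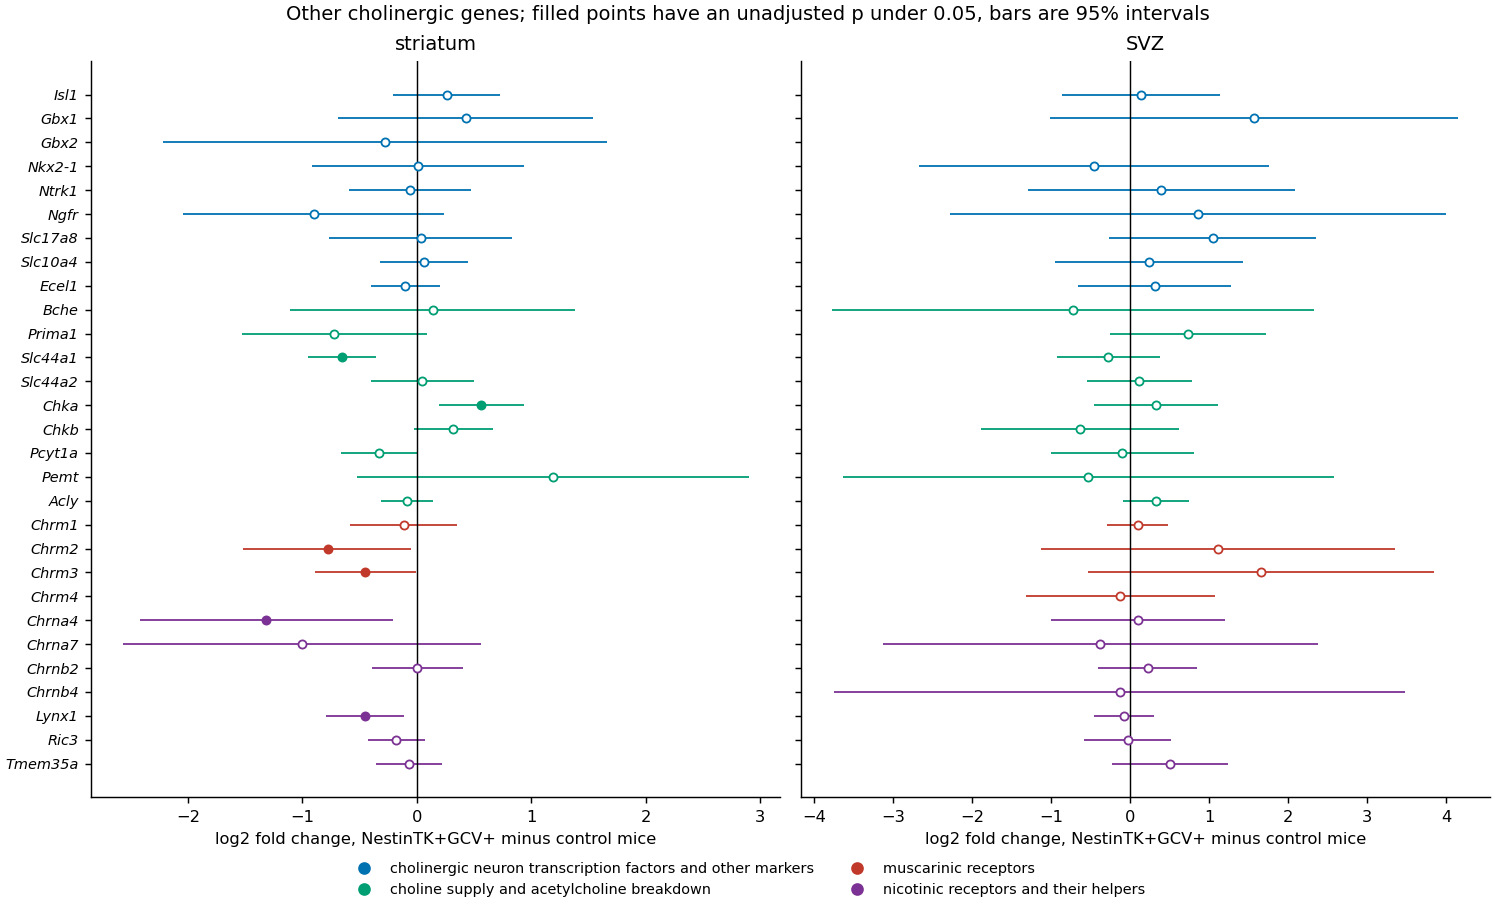
Fitted log2 fold change, NestinTK+GCV+ minus control mice, of the other cholinergic genes that passed the filter, by list (colours), with 95% intervals and filled points for an unadjusted p under 0.05. In the striatum 6 genes are filled, 5 of them below 0, and in the SVZ no gene is.

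The genes most like the members were found by Pearson r with the mean of their scaled log2 CPM over the 15 libraries, among genes of at least 5 CPM on average. In the striatum they were Kpna1 (r 0.89), Fmnl1 (0.88), Pgbd5 (0.86), Fam131b (0.85) and Chrdl1 (0.84) of 10568 genes. In the SVZ they were Calb1 (0.89), Tln2 (0.89), Usp3 (0.87), Homer1 (0.87) and Scn3a (0.87) of 11440. No gene was in both sets, which says little for 5 picks from so many genes. Values picked as the highest of so many, over 15 libraries, are raised by that choice. The members did not vary as a block, so their mean is a loose reference.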

How the data were processed

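The authors dissected, froze and sequenced striatum and SVZ of the same 15 mice and deposited raw read counts per gene, a table for each tissue. Per the submitters' processing notes, reads were trimmed with Trimmomatic (0.36, where the methods give another version), aligned with STAR (2.5.3a) to mm10 and counted with featureCounts, and whether strand was used is not given in the sources used here. The counts were tested in edgeR 4.0.16 (R 4.3.3) by the quasi-likelihood test with TMM scaling, over genes above 1 CPM in at least 3 libraries, each tissue apart. CPM is TMM-scaled, and log2 CPM has a prior count of 2. DESeq2 1.42.0 and limma 3.58.1 (voom) were alternatives. Exact permutation tests (numpy 2.4.6, scipy 1.17.1) compared mean log2 CPM. Symbols were matched to GENCODE vM21 (47653 of 50508 in the striatum and 49721 of 53278 in the SVZ table). The genes and lists were chosen with earlier results of these data known. The other genes named were those past an unadjusted p of 0.05 in NestinTK+GCV+ against control mice, the 2 most abundant of each list and tissue, and the 5 most like the members. In counts simulated for the striatum with 2-fold and 4-fold changes, the call recovered 40.8% and 95.9%, and for the SVZ 18.7% and 51.6%. Since the call needs an estimated change of at least 2-fold, a gene simulated at 2-fold can miss it on its estimate alone. The changed genes were drawn at random from all levels, not matched to the members. Replicates are separate mice, and the closest pair of libraries differed by more than sampling noise.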

Additional observations from a re-analysis of the deposited data

Results flagged for a closer look

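SVZ Slc5a7 had a single NestinTK+GCV+ library far from the rest, A2 at 7.11 CPM, with the other 4 at 37.6 to 47.6 CPM. On the log2 CPM scale A2 was at 2.86 and the others at 5.24 to 5.58. There its gap to the nearest of them was 0.875 of the range of the group, above the limit of 0.71 for 5 libraries. Over the members, tissues and groups 30 such tests were made, of which chance passes about 1 in 20. A2 also had the lowest spiny neuron sum of the SVZ libraries, 3845 CPM, and 528 CPM of cortical markers, and their part in the low value was not tested.

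The Ache difference between ablated and control mice was not the same in the tissues, by 0.82 log2 units in SVZ minus striatum (exact permutation test over 5 against 10 mice, two-sided, p = 0.00799, unadjusted over 5 tests). Without the libraries with cortical, septal or choroid plexus marks, with fewer mice, it was 0.91 (exact permutation p = 0.0857). The mean log2 difference was 0.54 in the SVZ and -0.28 in the striatum. Libraries of the tissues were made with different kits.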

How the results depend on the processing

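For the 5 genes in NestinTK+GCV+ against control mice, all 245 alternative values over both tissues kept their direction and stayed outside the call, with DESeq2, limma-voom, other size factors, no filter, 4 group means, the mouse number series or spiny neuron level as a covariate, libraries left out, and each mouse left out. No paired analysis was possible because the groups are different mice and replicate numbers only follow the order of deposition.

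In the contrasts of the 4 groups, 1 value passed the call, SVZ Lhx8 for GCV in NestinTK- mice without P1, which makes the count of members called in those SVZ contrasts 0 to 1 on leaving out a mouse. Some small differences changed sign. With limma-voom, striatal Slc5a7 against NestinTK-GCV+ was 0.0019 and SVZ Chat for the transgene under PBS was 0.24. Leaving out each mouse gave the following ranges in the striatum: Ache against NestinTK+PBS+ -0.23 to 0.0066, Chat for the transgene under PBS -0.29 to 0.15, Chat for GCV in NestinTK- mice -0.13 to 0.31, Slc5a7 against NestinTK-GCV+ -0.15 to 0.10 and Slc5a7 for GCV in NestinTK- mice -0.0066 to 0.25. In the SVZ they were -0.43 to 0.017 for Ache and -0.63 to 1.22 for Chat (transgene under PBS), -0.15 to 0.30 for Ache, -2.26 to 0.65 for Chat and -2.12 to 0.046 for Slc18a3 (GCV in NestinTK- mice), -0.04 to 2.87 for the Chat interaction and -0.12 to 0.94 for Lhx8 against NestinTK-GCV+. The cause was not tested.

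Permutation differences that crossed 0.05 on leaving out a mouse ranged from -0.48 to -0.26 for striatal Chat, -0.62 to -0.39 for striatal Slc18a3, -0.36 to -0.17 for striatal Ache, 0.41 to 0.77 for SVZ Ache and 1.62 to 2.20 for SVZ Lhx8. Between tissues they ranged from 1.11 to 1.60 for Chat, 1.48 to 2.10 for Lhx8 and 1.10 to 2.44 for Slc18a3. Without libraries with cortical, septal or choroid plexus marks, chosen after seeing the data, they were -0.50 for striatal Chat, 0.68 for SVZ Slc5a7, 0.53 for SVZ Ache, 1.14 for SVZ Lhx8 (1.86 without the cortical ones alone) and 0.91 for Ache between tissues.

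Counts over all genes moved far more. The striatal counts were 37 lower and 70 higher, and they became 19 and 171 with limma-voom, 56 and 274 without a filter, and 13 and 15 at an adjusted p under 0.05. The lower count was 89 with the mouse number series, and the higher count 125 with 4 group means and 125 with the spiny neuron level. In the SVZ 199 were called lower, with 409 by DESeq2, 95 by limma-voom, 127 with 4 group means, 131 with the mouse number series, 109 without libraries of over 1% Ttr, 97 without marked libraries and 1 at an adjusted p under 0.05. SVZ genes called higher were 61, with 1081 without a filter, 164 with 4 group means, 37 without marked libraries and 0 at an adjusted p under 0.05 (edgeR, 610 at an unadjusted p under 0.05). Leaving out each mouse gave 23 to 50 lower and 44 to 82 higher in the striatum and 130 to 231 lower in the SVZ. The lowest counts came without A3, A2 and A5 in that order. Depth limits striatal Slc18a3 (6 to 32 counts) and SVZ Lhx8 (1 to 20 counts in NestinTK-PBS+ mice).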
